A study of Homo sapiens with 14 samples.

Results

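Of 14865 regions bound by at least 1 NF-κB subunit in the Hodgkin lymphoma cell line L1236, 1513 overlapped an annotated transcription start site (TSS) and held clearly more p50 than p52 reads, and these promoter regions are described here. They were chosen by a log2 ratio of p50 to p52 reads of 0.8 or more. The ratio was computed after 1 read was added to each count and each count was divided by that subunit's total over all regions. In all, 2447 regions overlapped a TSS, so that 61.8% of them were chosen, and the 934 left, called the other TSS regions, served for comparison. Over the whole table, at and away from start sites, 26.0% of regions reached the same ratio. The data are ChIP-seq libraries of untreated L1236 cells, an established tumor line of B cell origin, immunoprecipitated for p50, p52, RelA (p65) or RelB in 2 replicates each, with 6 libraries of input DNA. The p52 replicates were made with different antibodies, and each antibody stands for its subunit, so that the subunit and the antibody cannot be told apart. The deposited table gives the reads of the 2 replicates merged, so no value below has an error between replicates, and intervals are for counting error alone. L1236 is a single line, and binding regions hold no expression values, so the label of the cells was not checked against markers.

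NF-κB proteins bind DNA as dimers at short, G-rich and C-rich sequences called κB sites. p50 and p52 are made from the precursors p105 and p100, the products of NFKB1 and NFKB2, and lack the transactivation domain that RelA, RelB and c-Rel carry. p50 pairs mostly with RelA in the canonical pathway and p52 with RelB in the non-canonical pathway, while dimers of p50 or p52 alone need other proteins to activate a gene. Hodgkin lymphoma cells are known for NF-κB that is active without a stimulus.

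The κB sequences of 6 chosen promoters are shown to let the DNA be seen beside the reads. They are the promoters with the highest p50 to p52 ratio, the densest p50 reads or the highest RelB or RelA enrichment that hold a match to the κB consensus upstream of the start, and NFKBIA, the inhibitor IκBα and a textbook NF-κB target, is a comparison that was added after its values were seen. Of the other promoters searched for comparison, BIRC3 holds the consensus upstream of the start and NFKB2 does not. The sequences are RefSeq promoter windows of the build GRCh38.p14, read 5′ to 3′ on the strand of the gene, and the capitals mark the bases that match the consensus on either strand, with overlapping matches joined. The windows were matched by gene symbol and not by position, since the regions lie on hg18, so they need not be the bases under the p50 summit.
PHF12, chr17:28951542-28951611, minus strand: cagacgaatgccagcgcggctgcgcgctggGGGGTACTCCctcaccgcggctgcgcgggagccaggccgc
BRAF, chr7:140924324-140924393, minus strand: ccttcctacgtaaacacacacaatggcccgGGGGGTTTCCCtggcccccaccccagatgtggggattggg
OAS3, chr12:112938314-112938383, plus strand: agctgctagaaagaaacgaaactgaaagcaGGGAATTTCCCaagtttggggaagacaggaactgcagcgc
ABCF1, chr6:30571390-30571441, plus strand: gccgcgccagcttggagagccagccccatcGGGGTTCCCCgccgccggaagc
ADCK4, chr19:40717023-40717092, minus strand: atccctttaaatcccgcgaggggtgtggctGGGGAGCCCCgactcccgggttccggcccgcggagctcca
IFNGR2, chr21:33403284-33403353, plus strand: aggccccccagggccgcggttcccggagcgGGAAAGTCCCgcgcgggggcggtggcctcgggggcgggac
NFKBIA, chr14:35404791-35404860, minus strand: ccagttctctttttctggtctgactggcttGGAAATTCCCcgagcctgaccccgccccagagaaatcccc

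The κB consensus was present in 5.72% of the 27303 promoter windows of the reference table, and in 5.05% within the 250 bases upstream of the start. The promoters shown above were picked for holding a match. Set beside these shares, they therefore say nothing of enrichment among the chosen promoters. In the 250 upstream bases ACHE, ALKBH7, SCAP, BAZ1B, BPHL, RBL1, ALDH1B1 and SEPX1 held no match. This says only that these letters are not there, and the 50 bases after the start were not counted for these genes. A promoter sequence was at hand for 149 of the 1513 chosen regions (9.85%), and a comparison of motifs or G+C content over the chosen promoters is therefore void and is not given.

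The chosen promoters held p50 reads at the density of other promoters and fewer p52 reads. Their median density was 103 p50 reads per kb of region (95% interval 101 to 106, n = 1513), against 109 (106 to 114, n = 934) at the other TSS regions. For p52 the median was 45.1 reads per kb (43.8 to 46.4) against 96.0 (91.1 to 100.3). On the log2 scale these medians differed by −0.07 for p50 and by −1.09 for p52. Since the reads of both subunits made the choice, these values describe it and carry no test. The medians of the groups thus lay apart in p52 and close together in p50. The reads are not corrected for input. The local background, taken as the p50 pileup over the p50 fold enrichment where p50 was called, had a median of 3.35 fragments in the chosen and 3.29 in the other TSS regions.

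**Figure D1:**
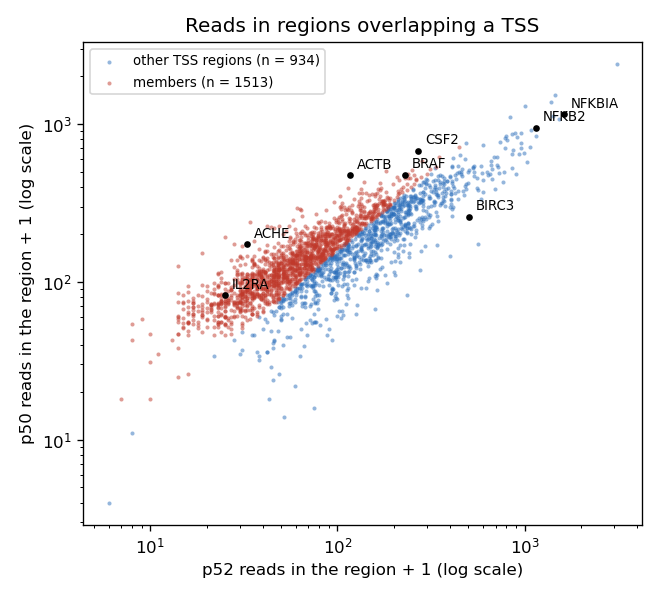
Reads of p50 (vertical) and p52 (horizontal) in each of the 2447 regions that overlap a TSS, both with 1 read added and on log scales. Red points are the 1513 chosen regions and blue points the 934 other TSS regions, and the boundary between the colors is the threshold itself. Black points are named promoters, with ACHE and ACTB far above the boundary and NFKBIA, NFKB2 and BIRC3 below it.

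The ratio among the chosen promoters ran from 0.80 to 3.30 on the log2 scale, with a median of 1.30 and the middle 50% between 1.04 and 1.58. A ratio of 1 or more was found in 1198 (79.2%) and one of 2 or more in 105 (6.94%). The exact binomial interval of the ratio reached a median of 0.47 to either side. It lay above 0 in 1510 regions but above the threshold in only 826 (54.6%), so membership near the threshold turns on few reads. The interval uses the same reads that chose the regions. That it lay above 0 in nearly all of them follows largely from the choice and is no support for the skew. In the 0.1 above the threshold lay 149 chosen regions, and in the 0.1 below it 140 TSS regions, and the nearest values on either side were 0.801 and 0.796. The threshold cuts through a continuous distribution.

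**Figure D2:**
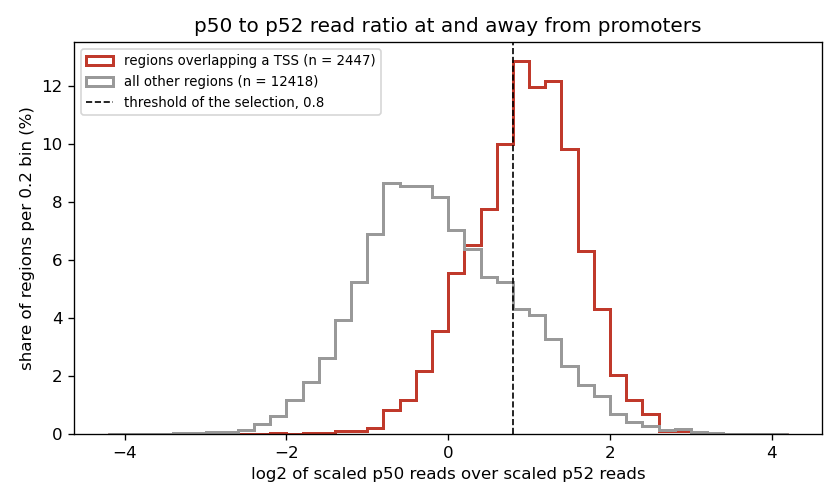
Share of regions (vertical, in percent per bin of 0.2) by the log2 ratio of scaled p50 to scaled p52 reads (horizontal), for the 2447 regions that overlap a TSS (red) and all 12418 regions that do not (gray). The dashed line is the threshold of 0.8, and the red outline passes through it with no gap, while most of the gray outline lies to its left.

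The chosen promoters took 13.8% of the 1654137 p50 reads counted in regions, 5.70% of the 1810792 p52 reads, 12.4% of the 315151 RelA reads and 8.996% of the 470788 RelB reads. A chosen region had a median of 129 p50, 56 p52, 23 RelA and 24 RelB reads. RelA and RelB values of single regions therefore rest on few reads. The regions were narrower than other TSS regions, with a median width of 1256 bp (1229 to 1288) against 1588.5 bp (1523 to 1646). Each had a different gene at its closest TSS, and in 51 (3.37%) the closest gene body belonged to another gene, as in 44 (4.71%) of the other TSS regions.

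Peak calls were mostly for p50. Of the chosen regions 1490 (98.5%) were called for p50 and 449 (29.7%, Wilson 95% interval 27.4 to 32.0%) for p52, where 73.8% and 73.3% of all regions had these calls, and the ratio that chose the members used the same reads. In 973 (64.3%) p50 was the single subunit called. Another 323 were called for p50 and p52, 106 for p50, p52 and RelB, and 60 for p50 and RelB. All 4 subunits were called in 13. The 449 regions with a p52 call had a median of 202 p50 and 101 p52 reads and a median ratio of 1.05, and the 1064 without one had 109 and 44 reads and a ratio of 1.41. p50 fold enrichment over input at the summit was higher in the former, at a median of 26.7 against 13.6. The regions with a p52 call were thus the more strongly enriched ones for p50.

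In 23 chosen regions p50 was not called. RelB was the single subunit called in 14 of them, RelA in 7 and p52 in 2, and their p50 reads ran from 17 to 117 with a median of 51. CTSB, the lysosomal protease cathepsin B, had 51 p50, 14 p52, 8 RelA and 31 RelB reads with a RelB fold enrichment of 7.16. BSN, a scaffold protein of the presynaptic zone, had 79 p50, 37 p52, 23 RelA and 39 RelB reads with a RelB fold enrichment of 3.73. Both names were chosen after their values were seen. In 21 of the 23 the peak thus belonged to a subunit that the ratio does not use.

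RelB and RelA reads had no part in the choice. RelB was called in 201 chosen regions (13.3%, Wilson 95% interval 11.7 to 15.1%), against 433 (46.4%, 43.2 to 49.6%) of the other TSS regions and 26.8% of all regions. RelA was called in 35 (2.31%, 1.67 to 3.20%), against 81 (8.67%, 7.03 to 10.7%) of the other TSS regions and 3.31% of all regions. The intervals of the 2 groups of promoters did not overlap for either subunit. They cover the count of regions alone, and no test was made, because the table holds 1 merged library for each subunit and regions are not replicates. Skewed regions away from a TSS, 2346 in number, had still fewer calls, with 7.67% (6.66 to 8.82%) for RelB and 0.895% (0.586 to 1.36%) for RelA.

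Read densities gave a difference for RelB and hardly any for RelA. The median was 18.6 RelB reads per kb (17.9 to 19.3) in the chosen promoters and 28.0 (26.5 to 29.5) in the other TSS regions, a log2 difference of −0.59. The choice was also made again among regions called for p50 and p52, by fold enrichment or by the signal value of either replicate. The difference was then −0.28, −0.13 and −0.16. The RelB share was 27.5%, 36.6% and 35.6% in the regions so chosen and 46.5%, 47.3% and 47.1% in the others. The gap in RelB calls was thus smaller where both subunits were called. For RelA the median was 18.4 reads per kb (18.0 to 18.9) against 19.2 (18.6 to 19.7), a log2 difference of −0.05. So RelA calls were fewer at the chosen promoters while RelA reads were almost as dense. Where a region was called, fold enrichment was lower in the chosen promoters too, with a median of 6.94 (6.46 to 7.47) against 10.1 (9.21 to 10.7) for RelB and of 5.68 (5.14 to 6.23) against 7.27 (6.79 to 7.80) for RelA.

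Both call shares followed the ratio in steps. Among TSS regions with a log2 ratio under 0, 58.6% (51.7 to 65.2%, n = 203) were called for RelB, and among those just under the threshold, from 0.4 to 0.8, 39.1% (34.6 to 43.7%, n = 435). From 0.8 to 1 the share was 24.1% (19.7 to 29.1%, n = 315), from 1.25 to 1.5 it was 11.3% (8.46 to 14.9%, n = 372) and at 2 or more 2.86% (0.976 to 8.07%, n = 105). RelA calls ran from 14.3% (10.1 to 19.8%) under 0 to 0.952% (0.168 to 5.20%) at 2 or more. RelB reads per kb ran from 35.6 to 16.2 over the same classes and RelA reads per kb from 20.5 to 16.4. The p52 reads, which set the classes together with p50, ran from 147 to 24.7 per kb. The p50 reads stayed between 97.8 and 116 per kb. The median width was 1490 bp under 0, 1632.5 bp from 0 to 0.4 and 1588 bp from 0.4 to 0.8, and lower in the classes above, down to 924 bp at 2 or more.

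**Figure D3:**
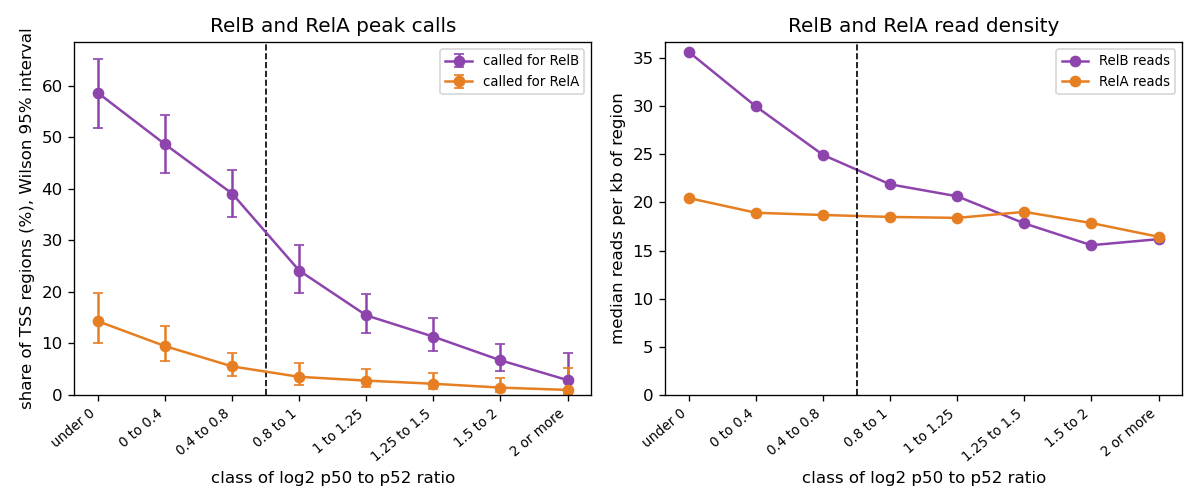
Left, share of TSS regions called for RelB (purple) and RelA (orange) in classes of the log2 p50 to p52 ratio, with Wilson 95% intervals as bars. Right, median RelB and RelA reads per kb of region in the same classes. The dashed line is the threshold of 0.8. The RelB share runs from 58.6% in the lowest class to 2.86% in the highest, and the RelA read density stays between 16.4 and 20.5.

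RelB calls also followed the p50 strength and the width of a region, so the groups were compared within quartiles of these measures. Strength was matched on p50 alone. At like p50 the rule leaves the chosen regions with fewer p52 reads, so strength over all subunits was not matched. In the lowest quartile of p50 fold enrichment 2.36% (1.32 to 4.17%) of the chosen and 18.5% (12.5 to 26.4%) of the other TSS regions were called for RelB, and in the highest 30.8% (25.6 to 36.5%) and 73.4% (68.3 to 78.0%). In the narrowest quartile, up to 1013 bp, the shares were 7.34% (5.30 to 10.1%) and 25.7% (19.3 to 33.3%), and in the widest 21.9% (17.3 to 27.3%) and 62.2% (57.0 to 67.1%). By p50 read density they were 10.4% (7.76 to 13.9%) and 27.5% (22.1 to 33.6%) in the lowest quartile and 20.5% (16.4 to 25.3%) and 70.0% (64.6 to 74.9%) in the highest. The RelB share was lower in the chosen promoters in each of the 4 quartiles of all these measures, with intervals that did not overlap. The RelA share was lower in the chosen promoters in these 12 quartiles as well, but the intervals overlapped in 6 of them, and in the narrowest quartile the shares were 2.59% (1.49 to 4.48%) and 2.70% (1.06 to 6.74%).

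**Figure D4:**
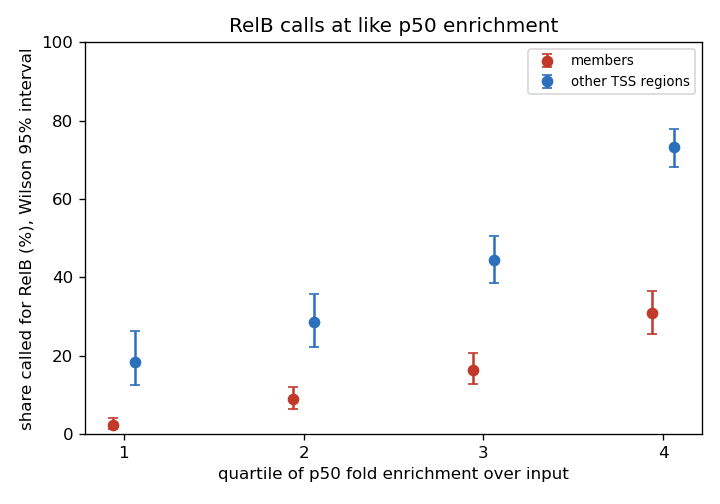
Share of regions called for RelB (vertical, in percent, with Wilson 95% intervals) in each quartile of p50 fold enrichment over input (horizontal, 1 is the lowest), for chosen promoters (red) and other TSS regions (blue) that were called for p50. In every quartile the red point lies under the blue one, with 30.8% against 73.4% in the highest.

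Summits of the subunits lay close together where several were called. The p50 and p52 summits were a median of 10 bp apart in 447 chosen regions called for both, and 91.9% lay within 100 bp. In 791 other TSS regions the median was 14 bp, with 84.6% within 100 bp. p50 and RelB summits lay a median of 20 bp apart in 187 chosen regions and 24 bp in 416 others. Wider gaps were found too, of 843 bp at RBL1 and of 1373 bp at ADA, the adenosine deaminase, which was named after its value was seen.

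The table also holds a signal value of each replicate, which entered the authors' test of reproducibility. For p50 these values of the 2 replicates had a Spearman correlation of 0.613 over 1490 chosen regions and 0.763 over 861 other TSS regions. For p52 it was 0.535 over 449 and 0.786 over 851, and for RelB 0.405 over 201 and 0.629 over 433. For RelA it was −0.04 over 35 chosen regions and 0.130 over 81 others, so the order of RelA peaks was not shared between replicates. These correlations are over regions of the same libraries and describe them. The replicates also differed in level for p52, with median signal values of 130 and 319 in the chosen and 227 and 590 in the other TSS regions. For p50 the medians were 278 and 304, and 486 and 480. For RelB they were 130 and 181, and 169 and 400. How the uneven p52 replicates bear on the merged ratio was not tested. The ratio of p50 to p52 signal values, with the median over all regions called for both set to 0, was above 0 in 421 (94.2%) of the 447 chosen regions with the first value and in 427 (95.5%) with the second. In the other TSS regions it was above 0 in 518 (65.5%) and 452 (57.1%) of 791. The log2 ratio of fold enrichments had a median of 0.80 in the chosen and 0.08 in the other TSS regions called for both. Each of these measures comes from the libraries that made the choice and is no independent evidence of it.

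Gene names were at hand for 207 chosen regions and 189 other TSS regions, and the named promoters below come from these. Of the named chosen regions 158 come from a slice of the study's gene table from A to the first names in C. Among the named ones, the 10 with the highest ratio and 100 or more p50 reads belong to no single class of genes. They need not be the highest of all chosen regions. ACHE, the acetylcholinesterase that breaks down acetylcholine, had the highest, with 172 p50, 32 p52, 19 RelA and 29 RelB reads in a region of 1107 bp at chr7:100330396-100331502 (hg18). After scaling, p50 reads were 5.74 times the p52 reads, a log2 ratio of 2.52 (exact binomial 95% interval 2.01 to 3.15). No subunit but p50 was called there. PHF12, a PHD finger protein of a Sin3 corepressor complex, followed with 226 p50, 48 p52, 22 RelA and 21 RelB reads at chr17:24302156-24303149 and a log2 ratio of 2.34 (1.91 to 2.85). Again only p50 was called. The locus AC024270.6 had 169 p50, 41 p52, 13 RelA and 12 RelB reads and a log2 ratio of 2.15 (1.67 to 2.70).

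ACTB, the cytoplasmic β-actin and a common housekeeping gene, had 472 p50, 116 p52, 78 RelA and 71 RelB reads over 3442 bp at chr7:5533795-5537236. Its log2 ratio was 2.15 (1.86 to 2.46), and it was called for p50 alone. ARPC1B, a subunit of the Arp2/3 complex that branches actin filaments, had 124 p50, 34 p52, 27 RelA and 22 RelB reads and a ratio of 1.97 (1.44 to 2.59). BAZ1B, a bromodomain protein of chromatin remodeling complexes, had 390 p50, 113 p52, 48 RelA and 34 RelB reads and a ratio of 1.91 (1.61 to 2.23). It was the single promoter of these 10 with a p52 call, at a p52 fold enrichment of 13.9 beside 53.9 for p50, with the summits 55 bp apart. ALKBH7 of the AlkB dioxygenases had a ratio of 2.01, SCAP, which escorts the sterol-sensing factor SREBP, of 1.98, and the acyltransferase AGPAT9 of 1.96. None of the 10 had a RelB or RelA call. Such calls were few at all TSS regions of like ratio. From 1.5 to 2 the shares were 6.70% for RelB, 1.40% for RelA and 8.94% for p52. At 2 or more they were 2.86%, 0.952% and 2.86%. The calls of these 10 are thus not particular to these genes.

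Ranked by p50 read density among the named chosen promoters, BRAF, a kinase of the MAP kinase cascade, led with 476 p50, 228 p52, 33 RelA and 39 RelB reads at chr7:140270177-140271701, which is 312 p50 and 150 p52 reads per kb. Its log2 ratio was 1.19 (0.96 to 1.43), and p50 and p52 were both called, at fold enrichments of 58.8 and 34.9 and with summits 1 bp apart. BPHL, a serine hydrolase, had 276 p50, 155 p52, 35 RelA and 89 RelB reads at chr6:3063326-3064385, and all 4 subunits were called. With a ratio of 0.96 (0.67 to 1.26), its interval reached below the threshold. OAS3, an oligoadenylate synthetase of the antiviral interferon response, had 169 p50, 70 p52, 11 RelA and 15 RelB reads in 667 bp and a ratio of 1.39 (0.99 to 1.83). Its p50 and p52 summits were at the same base, and its promoter window above holds a κB match.

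RBL1, a retinoblastoma-like protein that restrains E2F factors, had 474 p50, 225 p52, 42 RelA and 71 RelB reads and was called for p50, p52 and RelB. ALDH1B1, a mitochondrial aldehyde dehydrogenase, had 295 p50, 137 p52, 27 RelA and 51 RelB reads and the same calls. ABCF1, an ABC family protein that acts in translation, had 165 p50, 65 p52, 49 RelA and 45 RelB reads and was called for p50, RelB and RelA but not for p52. Per kb these are 72.2 RelA and 66.3 RelB reads, the highest RelA density of the 10 densest in p50. AGPAT9 and PHF12 were the promoters among the 10 highest ratios that were also among the 10 densest.

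Among the named chosen promoters RelB enrichment was highest at IFNGR2, a chain of the interferon-γ receptor, with 262 p50, 143 p52, 44 RelA and 118 RelB reads over 3279 bp at chr21:33696681-33699959. RelB fold enrichment was 15.0 beside 32.8 for p50, and p52 was not called. RelB fold enrichment was 13.1 at BPHL, and at SEPX1, a selenoprotein that repairs oxidized methionine, it was 12.7 with 179 p50, 58 p52, 21 RelA and 54 RelB reads. SEPX1 had a ratio of 1.74 (1.32 to 2.21), well above that of IFNGR2 at 1.00, so a high RelB enrichment was also found far inside the choice. RelA was called at 4 named chosen promoters, with fold enrichments of 7.86 at BPHL, 5.19 at the locus AC005075.2, 4.50 at ABCF1 and 4.13 at ADCK4, a kinase-like protein of coenzyme Q synthesis.

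The named promoters on either side of the threshold differed little. IGF1R, the receptor of insulin-like growth factor, was just inside with 241 p50 and 151 p52 reads and a ratio of 0.80 (0.51 to 1.11). ADAM17, the protease that sheds TNF, had 146 and 91 reads, and PTPRJ, a receptor phosphatase, 215 and 133. IL12RB1, a chain of the interleukin-12 receptor, was just outside with 59 p50 and 37 p52 reads and a ratio of 0.79. GABBR1, a GABA receptor subunit, had 294 and 186 reads. The widest named chosen region, 6487 bp at chr5:131436547-131443033, lay at CSF2, which encodes the growth factor GM-CSF. It held 678 p50, 269 p52, 99 RelA and 97 RelB reads with a ratio of 1.46 (1.26 to 1.67), and p50 and p52 were called.

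None of the 12 named TSS regions at genes of the NF-κB system was among the chosen ones, while 1306 chosen regions have no name here. Their names, like those of the lists that follow, came largely from tables of genes that the study found regulated in its knockdowns, and the lists were written with results of these data known. All 7 TSS regions of NF-κB subunits and IκB proteins (NFKB1, NFKB2, REL, RELA, RELB, NFKBIA and BCL3) had a ratio under the threshold, from −0.37 to 0.48 with a median of −0.02. The median over all TSS regions was 0.99. RelB was called in 7 of these 7 and RelA in 6, where 25.9% and 4.74% of all TSS regions had these calls. NFKBIA had 1152 p50, 1626 p52, 190 RelA and 620 RelB reads, and NFKB2, which encodes p100, 947, 1152, 112 and 495. Per kb NFKBIA held 311 p50 reads, as many as BRAF, but 439 p52 and 168 RelB reads against 150 and 25.6 at BRAF. So the 2 promoters were alike in p50 density and apart in p52 and RelB density.

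The counts of chosen regions that follow stand beside 61.8% of all TSS regions and 34.5% of names found only in the tables of regulated genes. Each rests on few named regions. Of 5 genes of NF-κB signaling, BIRC2, BIRC3, TNIP1, TNFAIP3 and TRAF1, none was chosen. RelB was called in 5 of 5, beside the same 25.9% of all TSS regions. BIRC3, an inhibitor of apoptosis, had the lowest ratio of them, −0.84, with 256 p50, 504 p52, 78 RelA and 182 RelB reads. None of 4 TNF receptor family members and ligands (TNFRSF14, TNFRSF9, TNFSF9 and CD40) and none of 3 genes in the list of interferon regulatory factors (IRF1, IRF5 and PRDM1) was chosen. Among 13 cytokines, chemokines and their receptors 3 were chosen. They are CSF2, IFNGR2 and IL2RA, the α chain of the interleukin-2 receptor, with 81 p50, 24 p52, 11 RelA and 9 RelB reads and a ratio of 1.84 (1.21 to 2.61). The other 10, among them IL4R at 0.32, CCL5 at 0.29 and LTA at 0.20, had ratios from −0.72 to 0.79.

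Lists outside the NF-κB system had few named TSS regions, and their counts stand beside the 61.8% of all TSS regions that were chosen. In cytoskeleton and glycolysis 3 of 4 were chosen, ACTB, the aldolase ALDOA with 70 p50 and 22 p52 reads, and the pyruvate kinase PKM2 with 268 and 163. MYH9, a non-muscle myosin, was not, with 456 and 553. Both ATP5G1 and ATP5H, subunits of ATP synthase, were chosen at 1.50 and 1.38, and ATP5I was not, at 0.56. Of 3 named regions in the cell cycle list CDKN1A, the inhibitor p21, with 94 p50 and 32 p52 reads, and RBL1 were chosen. CDC42SE2, which was not, is a CDC42 effector that matched the list by its symbol. The survival gene BCL2 was the chosen one of 4 named regions in the list of apoptosis regulators. It had 106 p50 and 58 p52 reads and a ratio of 0.99 (0.53 to 1.49). That list is not complete. Outside it BNIP3 at 1.34 and BIRC6 at 1.26 were chosen, and BAD at 0.21 and BNIP1 at 0.33 were not. These names were picked after their values were seen. ATF1 and ATF7 were chosen among 4 AP-1 and ATF factors, POU2F1, the octamer factor OCT1, among 3 B cell transcription factors, and ARID1A, a subunit of SWI/SNF remodelers, and ARID4B among 7 chromatin regulators. ARID1A had 284 p50, 86 p52, 42 RelA and 43 RelB reads and a ratio of 1.84 (1.50 to 2.22). The single named region in each of the lists of translation factors, of DNA replication and repair, and of zinc finger genes was not chosen. These were EEF2K, a kinase that matched its list by its symbol, POLA2 and ZBTB32. Of 25 lists, 18 had a named TSS region and 10 a chosen one.

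The names themselves were an uneven sample. In the readable alphabetical slice of the study's gene table, from A to the first names in C, 158 of 254 named TSS regions (62.2%) were chosen, close to the 61.8% of all TSS regions. Among names found only in the tables of regulated genes 49 of 142 (34.5%) were chosen. Families in the alphabetical slice were grouped after the values were seen and carry no weight as a test. The chosen regions included 6 of 6 ARF and ARL GTPases, which act in vesicle traffic, 6 of 6 P-type ATPases, 7 of 8 genes named for ankyrin repeats, 7 of 9 glycosyltransferases and 5 of 7 subunits of clathrin adaptors. The ARF and ARL ratios ran from 0.84 to 1.54. Of these promoters 3 were called for p52 and none for RelB, beside 29.7% and 13.3% of all chosen regions. With 6 regions these counts are no trait of the family.

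**Figure D5:**
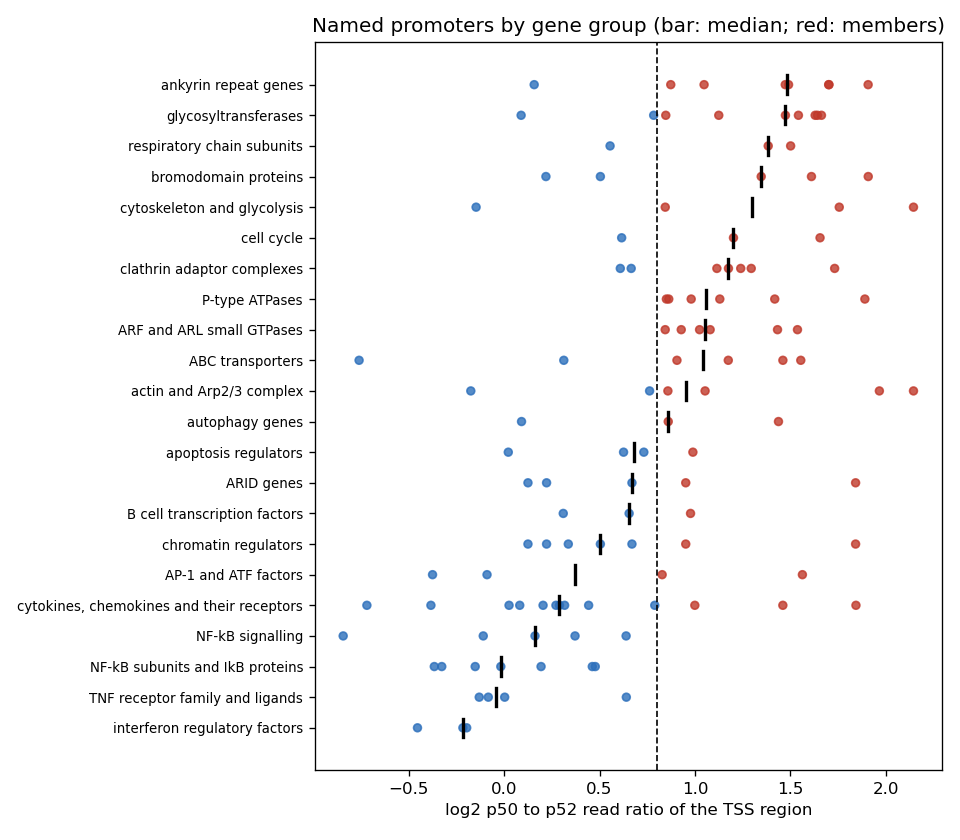
Log2 ratio of p50 to p52 reads (horizontal) of each named TSS region in the gene groups shown, each with 3 or more such regions (vertical). Red points are chosen and blue points other TSS regions, black bars are group medians, and the dashed line is the threshold of 0.8. The NF-κB subunits and IκB proteins lie between −0.37 and 0.48, and the ARF and ARL GTPases between 0.84 and 1.54. Genes with ankyrin repeats, glycosyltransferases, clathrin adaptors, P-type ATPases, ARF and ARL GTPases, ABC transporters, actin and Arp2/3, autophagy genes, bromodomain proteins and ARID genes were grouped after the values were seen.

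The chosen promoters were spread over the chromosomes. On those with 50 or more TSS regions their share of these ran from 52.7% (41.5 to 63.7%) on chromosome 4 to 70.8% (60.6 to 79.2%) on chromosome 9, with intervals that overlapped. The densest stretch within 1 Mb was chr6:26128504-26647313 (hg18), where 15 of 17 TSS regions were chosen, with a median ratio of 1.75 and a range from 1.15 to 2.47. This is the part of chromosome 6 that holds the large histone gene cluster, and HIST1H4H, a histone H4 gene, was the chosen region with a name in it, with 129 p50, 60 p52, 32 RelA and 24 RelB reads. All 15 were called for p50, 1 for p52 and none for RelB or RelA. On chr19:53558110-54315892 all 9 TSS regions were chosen, with a median ratio of 1.47. ACHE lies in a stretch on chr7:99516728-100331502 with 10 of 12 chosen. Other stretches with 10 chosen held 12 TSS regions on chr12:54869305-55792727, 13 on chr19:1198686-2187502 and 14 on chr6:31573120-32273001. These stretches were picked for holding the most chosen regions, and 61.8% of all TSS regions were chosen, so the counts are a description.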

How the data were processed

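The values come from ChIP-seq of p50, p52, RelA and RelB (2 replicates each) and 6 input libraries of L1236 cells. The authors aligned reads with Bowtie to hg18, kept unique reads, removed duplicates with SAMtools, reduced libraries to 10000000 reads, called peaks with MACS, measured reproducibility by IDR (fraction, study threshold 0.05) and joined the peaks into regions. The deposited counts are whole reads per region of merged replicates, without normalization. It is not given in the sources used here whether they precede the reduction. The deposited fold enrichment is a ratio of ChIP to input, the deposited pileup a coverage signal at the summit, the deposited FDR a q-value, and the deposited signal values a score per replicate, of unnamed scale. Distances to a TSS are the authors', from Ensembl version 54.

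The log2 ratio used a pseudocount of 1 and the totals over all regions, and the threshold was 0.8. Shares have Wilson intervals and medians order-statistic intervals, at 95%. PCR reads are not independent molecules, so intervals cover counting error only. No test over regions was made. The members, lists and families were chosen with earlier results of these data known. Genes were named from the study's tables, of which one was readable in part, by a fixed rule: the highest ratios with 100 or more p50 reads, the densest p50, the highest RelB, RelA and p52 and the lowest p52 fold enrichment, the promoters next to the threshold, the widest, and members of the lists. Names outside it are marked, and some named items are not reported here. The steps were tested on simulated data. Alternatives are given at the end. Calculations ran in Python 3.11.15 with scipy 1.17.1, pandas 2.3.3, numpy 2.4.6 and, for plots, matplotlib 3.10.9.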

Additional observations from a re-analysis of the deposited data

How the results depend on the processing

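No paired analysis was possible because the table merges the replicates of each subunit, and read counts without a replicate could not be had for the same reason. The signal values are the one measure of single replicates. Over 14 alternatives the share called for RelB was 8.62 to 36.6% in the chosen and 36.1 to 52.1% in the other TSS regions, and lower in the former in each alternative. For RelA it was 1.77 to 6.90% and 6.49 to 10.7%, likewise lower in each, but by signal value 1 the chosen share of 6.90% (5.09 to 9.30%) had an interval that held the 8.32% of the others. The alternative of an IDR below 0.01 removed no region, so its values equal those reported and count as within the interval by construction. Of the recomputed values 76 stayed within the interval of the value reported, or, for counts, within 1.5 times it, and 47 did not. The cause was not tested.

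With a threshold of 0.5 the median ratio was 1.18, the p52 share 39.3%, the RelB share 17.7%, the log2 difference of RelB densities −0.66 and the median width 1302 bp. With a threshold of 1.2 these were 1.51, 15.7%, 8.62%, −0.52 and 1153 bp, with 905 members. Scaling to the sums over regions called for both gave a median ratio of 1.34 and a p52 share of 32.6%, no scaling 1.24 and 25.7%, and a pseudocount of 5 a median of 1.25. An FDR below 1e-05 gave a p50 share of 99.3%, and a TSS within 1 kb a RelB density difference of −0.53 and a width of 1221 bp.

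Where only regions called for both subunits were kept, so that the p50 and p52 shares are 100% by construction, 265 passed by fold enrichment, 565 by signal value 1 and 506 by signal value 2. Their median ratios were 1.06, 1.45 and 1.39, the RelB shares 27.5%, 36.6% and 35.6%, the RelA shares 4.15%, 6.90% and 5.53%, the RelB density differences −0.28, −0.13 and −0.16, and the widths 1501, 1510 and 1497 bp. By signal value 2 the RelA density difference was −0.0071. An IDR below 0.001, added after the data were seen because every listed IDR was below 0.01, left 950 members, 44.9% of them called for p52 and 18.0% for RelB. The motif alternative was not run, since the check itself is void. Depth limits RelA and RelB, with medians of 23 and 24 reads per chosen region.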
